A study of Mus musculus with 19 samples.

Results

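Wild-type pre-iPSCs after 10 days of conversion (WT D10, replicates A, B and C) were set against mouse embryonic stem cells at 72 hours (mESC 72 h, 1 library) by their maps of 5-hydroxymethylcytosine (5hmC). These 4 of the 19 samples were chosen by their titles, and all deposited peaks on chromosomes 1 to 19 were used, 242214 of the 1601520 peaks in the series, with chromosome 8 kept apart. Pre-iPSCs are reprogramming intermediates derived from mouse embryonic fibroblasts (MEFs) that have stalled before pluripotency. The WT D10 cells were grown in embryonic stem cell medium with serum and leukaemia inhibitory factor, were treated with ascorbic acid and 2i (CHIR-99021, which inhibits GSK3, and PD-0325901, which inhibits MEK), and were taken on day 10. The embryonic stem cells were of the V6.5 line and carry the same treatment label, ascorbic acid with 2i, as do all libraries but the input, day 0 and 0 hours included. The labels do not say what the 72 hours were counted from. The remaining libraries, used only to read where else a site had a peak, were WT at days 0 and 2 (3 each), knockout pre-iPSCs at days 0, 2 and 10 (KO1 and KO2, the deleted gene not being named in the labels) and mESC at 0 and 12 hours (1 each). The labels do not say whether WT replicates were separate cultures, so the p-values below speak of the spread among these libraries alone, possibly a technical one. A label also says that peaks were not called for the mESC samples, yet peak lists are deposited for them and were used.

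5hmC is made when TET dioxygenases oxidise 5-methylcytosine, and it is both a step towards removal of DNA methylation and a mark that persists at active genes and enhancers. Ascorbic acid is a cofactor that raises TET activity, and embryonic stem cells, which express TET enzymes, carry much 5hmC. During reprogramming the somatic pattern of methylation is replaced by that of pluripotent cells, so a 5hmC site of the converted cells can be shared with stem cells, specific to the converted cells, or a stem cell site that is still missing. The assay glucosylates 5hmC, adds biotin, pulls the fragments down and sequences them, and a peak is a stretch of genome enriched over the control. Regions are given below by their mm9 position alone, because the gene tables at hand were of another build.

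The lists differed in length and, on the reading given below, in depth, which bears on every share that follows. On the 18 autosomes other than chromosome 8, WT D10 A, B and C held 80795, 72536 and 51512 peaks and mESC 72 h held 21010. Peaks covered 24.2 ± 6.90 Mb in WT D10 (SD, n = 3) and 6.15 Mb in mESC 72 h. Depth relative to the input library, from the steps of the deposited fold values, came to 1.37, 1.64 and 1.03 in A, B and C. The steps give only the part after the decimal point, and the whole part was assumed. Depth was not read for mESC 72 h. Replicate C had the fewest peaks and, under that assumption, the lowest depth, and the part of depth in the counts was not tested. Median peak width was 319, 315 and 278 bp in A, B and C and 262 bp in mESC 72 h, and the authors' median fold enrichment over control was 4.58, 4.24, 4.56 and 4.34.

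In the whole lists, WT D10 libraries carried a peak at 39.7 to 55.2% of the stem cell sites, 32.1% of these sites were in no WT D10 list, and most sites reproduced among the WT D10 libraries were outside the stem cell list. Of the 21010 mESC 72 h peaks, 55.2% overlapped a peak of WT D10 A, 52.2% a peak of B and 39.7% a peak of C, a mean of 49.0 ± 8.21% (SD, n = 3); C was the low library. In the other direction 14.2%, 15.0% and 16.2% of the WT D10 peaks of A, B and C overlapped an mESC 72 h peak, a mean of 15.1 ± 0.983% (SD, n = 3). The 95% Wilson intervals, which cover counting error only, were 39.1 to 40.4% for the lowest of the former shares and 14.0 to 14.5% for the lowest of the latter. Peak by peak, 6243 of the mESC 72 h peaks (29.7%) had a partner in all 3 WT D10 lists, 4163 in 2, 3860 in 1 and 6744 (32.1%) in none. Both shares moved with list length: when every list was cut to its 21010 strongest peaks, 23.8% of the mESC 72 h peaks were recovered on average, 10.3% had a partner in all 3 WT D10 lists and 60.8% in none. This cut shortened the WT D10 lists alone, since 21010 peaks are the whole mESC 72 h list. With 1 stem cell library these shares have no replicate check on the mESC side and carry no test.

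Merging the 4 lists gave 122479 regions. Shared regions, with a peak in all 3 WT D10 lists and in mESC 72 h, numbered 6363 or 5.2% of all regions. Specific regions, with a peak in all 3 WT D10 lists and none in mESC 72 h, numbered 20021 or 16.3%. Missing regions, with an mESC 72 h peak and none in any WT D10 list, numbered 6744 or 5.51%. The remaining regions were undecided. With an mESC 72 h peak, 3628 had a peak in 1 WT D10 list and 3982 in 2, and without one, 53743 had a peak in 1 and 27998 in 2. Thus 24.1% of the regions found in every WT D10 library were in the stem cell list (95% Wilson interval 23.6 to 24.6%). Shared regions were the widest, with a median of 563 bp against 492 bp for specific and 242 bp for missing regions, and they covered 4.18, 11.1 and 1.78 Mb. The widths follow in part from the merging, since a shared region joins peaks of 4 lists and a missing region is a single mESC 72 h peak.

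The counts depended on the length of the lists and on replicate C. With the 21010 strongest peaks of each library by the authors' -log10 p, 2172 regions were shared, 3612 specific and 12771 missing. Without WT D10 C, specific regions numbered 37294. A call of presence carried to a library that had not made it more often for shared than for specific regions. Classes were called from 2 WT D10 libraries and mESC 72 h and read in the remaining WT D10 library: shared regions had a peak there in 90.0%, 89.7% and 71.3% of cases (A, B and C held out), specific regions in 79.0%, 78.7% and 53.9%, and missing regions in 22.3%, 16.4% and 8.16%. So an absence from 2 lists was overturned by the remaining list in 15.6 ± 7.10% of missing regions (SD, n = 3), most often by A, the longest list.

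Pairs of WT D10 lists resembled each other more than they resembled the stem cells. At 21010 peaks each, pairs of WT D10 libraries shared 40.5 to 47.9% of their peaks (3 pairs), whereas WT D10 and mESC 72 h shared 21.9 to 24.5% (3 pairs). The ranges did not overlap. The cut kept only the strongest WT D10 peaks but left the mESC 72 h list whole, down to a -log10 p of 4.00. Weaker peaks were shared less often, so the 2 kinds of pair are not alike in strength. The part of this in the gap was not tested. Within the 6363 shared regions, peak summits of 2 WT D10 libraries lay a median of 54.0 to 63.0 bp apart and those of a WT D10 library and mESC 72 h 63.0 to 69.0 bp apart. Overlap was required of these regions and itself bounds the distance between summits, so the medians are given as a description. In strength, the authors' fold values of the strongest peak in each shared region ranked with a Spearman rho of 0.42 to 0.53 between WT D10 libraries and 0.09 to 0.13 between WT D10 and mESC 72 h (n = 6363 regions, a description). By -log10 p the values were 0.40 to 0.52 and 0.14 to 0.20. On the coarser scale of 2288 windows of 1 Mb, the number of peaks in mESC 72 h ranked with that in WT D10 at a rho of 0.84 in each library, with that in WT D2 at 0.75 to 0.76 and with that in WT D0 at 0.71 to 0.72; the windows share base composition and mappability, and these values are descriptions.

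Sharing was highest among the strongest peaks of both cell types. Of the strongest 10% of WT D10 peaks, 32.4 ± 0.547% overlapped an mESC 72 h peak, against 20.8 ± 0.164% of the next 10% and 9.45 ± 0.964% of the weakest 10% (SD, n = 3). The libraries nearly coincided among their strongest peaks, at 31.8 to 32.9%. Of the strongest 10% of mESC 72 h peaks, 44.5% had a partner in all 3 WT D10 lists and 18.3% in none, and of the weakest 10% it was 23.8% and 37.4%. Even among the strongest stem cell sites, then, nearly 1 in 5 had no WT D10 peak. Width moved with strength: the median WT D10 peak was 371 to 443 bp wide among the strongest 10% and 246 to 275 bp among the weakest 10%, wider peaks overlap more easily, and the part of width in this relation was not tested.

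**Figure D1:**
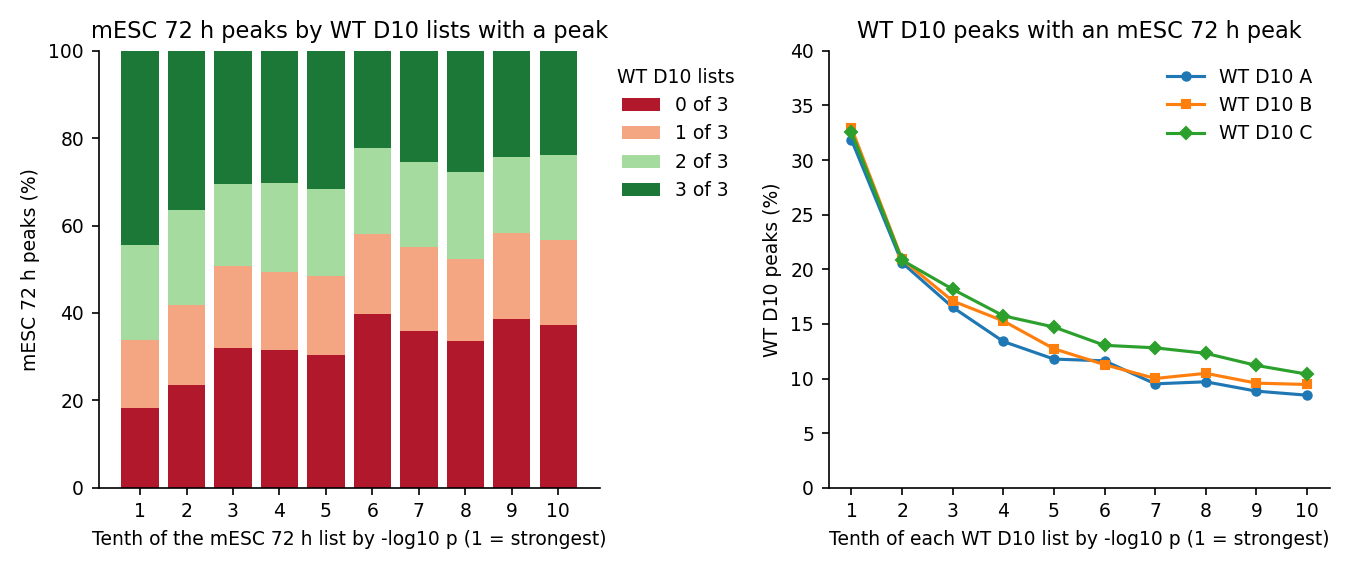
Left: mESC 72 h peaks (%) by the number of WT D10 lists with an overlapping peak, in 10 equal steps of the mESC 72 h list from strongest (1) to weakest (10) by the authors' -log10 p. Right: WT D10 peaks (%) with an overlapping mESC 72 h peak, in 10 equal steps of each list, 1 line per library; the 3 lines run from 31.8 to 32.9% down to 8.48 to 10.4%.

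Broad peaks were shared most. Wider peaks overlap more easily at 1 bp and were also the stronger ones, and these parts of the relation were not tested. Among WT D10 peaks of 1000 to 2000 bp, 45.5%, 44.5% and 60.2% (A, B and C) overlapped an mESC 72 h peak, and among those of 2000 bp and over it was 16 of 20, 27 of 34 and 8 of 8. Below 300 bp the shares were 8.65%, 9.76% and 12.0%. Of the 39 mESC 72 h peaks of 1000 to 2000 bp, 37 had a partner in at least 1 WT D10 list.

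The recovery of stem cell sites was then followed over the course of conversion, with each pre-iPSC list cut to its 51512 strongest peaks. WT D0 A, B and C held a peak at 4.84%, 5.50% and 4.08% of the mESC 72 h peaks, WT D2 at 9.16%, 8.70% and 8.50%, and WT D10 at 42.8%, 42.6% and 39.7%. The days did not overlap, and the larger step was that between days 2 and 10. The means were 4.81 ± 0.710%, 8.78 ± 0.342% and 41.7 ± 1.73% (SD, n = 3 each; two-sided exact permutation F over 3 days, p = 0.00357, the smallest it can give). The difference was 3.98 points from D0 to D2 and 32.9 points from D2 to D10, each with an exact permutation p of 0.1, the smallest that 3 against 3 allow. In the whole lists these steps were 11.9 and 30.0 points, so the size of the first depended on the length of the lists. The distance to the nearest peak was shortest at day 10: a median mESC 72 h peak lay 10.7 to 13.8 kb from the nearest WT D0 peak, 13.9 to 14.7 kb from the nearest WT D2 peak and 1.29 to 1.84 kb from the nearest WT D10 peak in these lists. Overlapping peaks enter these medians, so the distance is not separate from the recovery. It was longer at D2 than at D0, unlike the order of recovery. At day 10 KO1 and KO2 recovered 7.56% and 14.3% of the mESC 72 h peaks. Both lay below every WT D10 library; KO1 lay between the WT D0 and D2 libraries and KO2 above them. The KO minus WT difference at day 10 was -30.8 points (two-sided exact permutation p = 0.1, the smallest that 2 against 3 allow). The comparison over days and that with the KO share the WT D10 libraries.

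**Figure D2:**
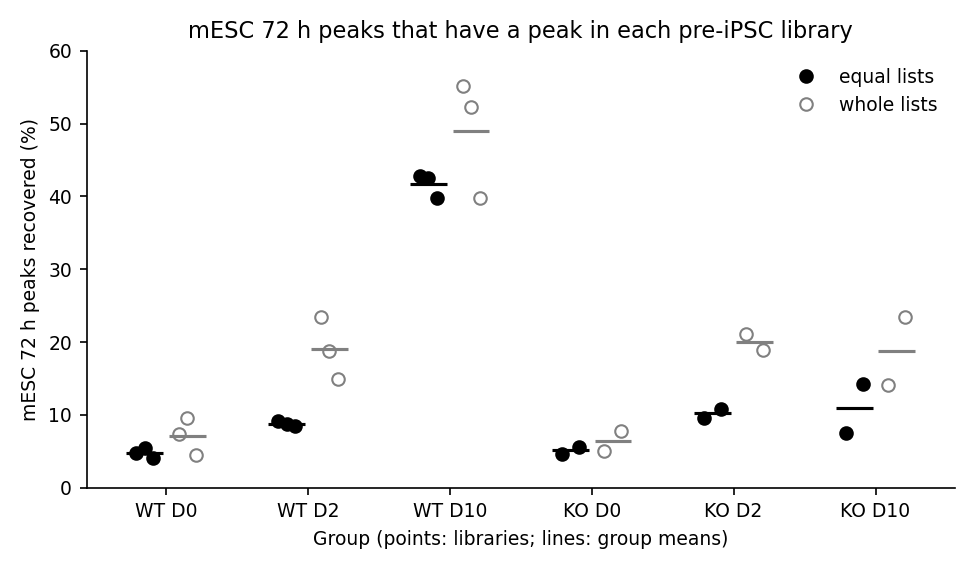
Share of the 21010 mESC 72 h peaks (%) with an overlapping peak in each pre-iPSC library; points are libraries and lines are group means, filled for equal lists of 51512 peaks and open for whole lists. WT D10 libraries sit at 39.7 to 42.8% in equal lists, above all other libraries, which reach at most 14.3%.

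Shared, specific and missing regions differed in how often they had an earlier peak. Missing regions were the narrowest, with a median of 242 bp against 563 bp for shared and 492 bp for specific regions. A narrower region overlaps a peak less easily, and the part of width in the missing shares was not tested. In the whole lists, 39.3 ± 7.72% of shared regions had a peak at WT D2, against 56.0 ± 7.58% of specific and 5.47 ± 1.42% of missing regions (SD, n = 3 each). At WT D0 the shares were 14.6 ± 5.00%, 22.2 ± 6.65% and 3.59 ± 1.03%. With each list cut to its 51512 strongest peaks they were 19.9 ± 1.04%, 33.1 ± 1.34% and 1.83 ± 0.149% at WT D2 and 9.72 ± 1.34%, 14.9 ± 1.36% and 2.37 ± 0.268% at WT D0. Missing regions were thus higher at D2 than at D0 in the whole lists and lower in the equal ones, whereas the order of the 3 classes was the same in both. Specific regions thus had an earlier peak more often than shared regions, in WT D2 A (64.0 against 47.5%), B (55.1 against 38.3%) and C (48.9 against 32.2%) and in all 3 WT D0 libraries. The mean difference over the 6 libraries of D0 and D2 was 12.1 points (SD 5.05; two-sided exact sign-flip permutation p = 0.0312, the smallest that 6 libraries allow). This test was chosen after the values were seen and takes the 6 libraries as independent; over 3 letters the smallest p would be 0.25. With equal lists the difference was 9.20 points, again in 6 of 6 libraries.

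The difference was present at each level of strength and width. Regions found in all 3 WT D10 lists were split into 4 classes of equal size by their strength there. In the strongest class the WT D2 lists, cut to 51512 peaks, held on average 30.9% of shared and 47.3% of specific regions, and in the weakest class 8.87% and 23.5%. Among regions of 1000 bp and over the same shares were 32.3% and 51.3%. In each of the 4 strength classes and of 4 width classes the specific regions were the higher ones in 6 of 6 libraries. Read by region, 2942 shared regions (46.2%) had no peak in any WT D0 or D2 list, against 6102 specific regions (30.5%), and 1754 shared (27.6%) and 8705 specific regions (43.5%) had a peak in all 3 WT D2 lists.

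**Figure D3:**
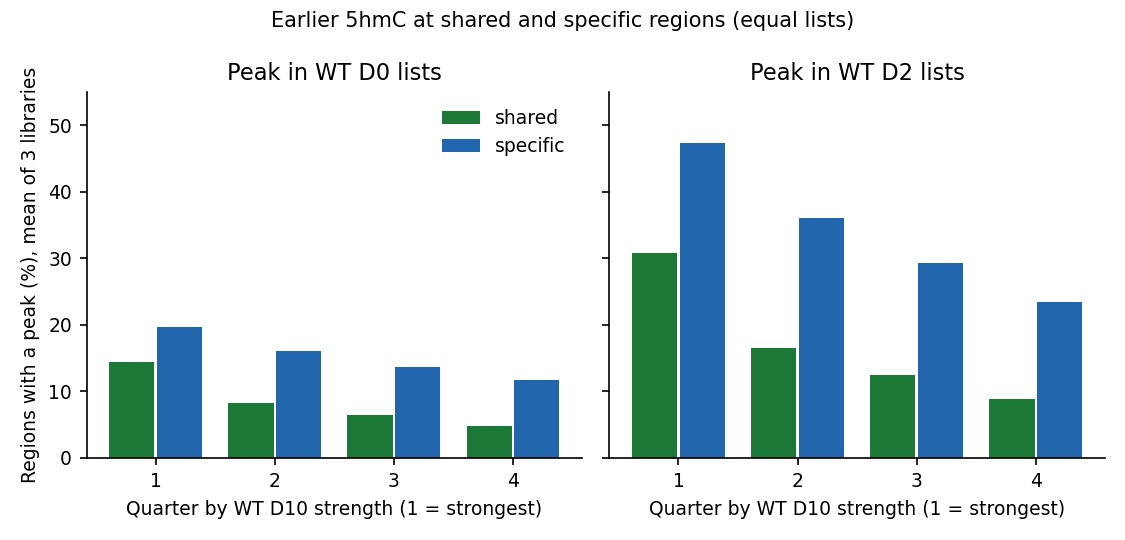
Mean share of shared and specific regions (%) with a peak in the 3 WT D0 lists (left) or the 3 WT D2 lists (right), equal lists, in 4 classes of the regions by their strength in WT D10. Specific regions are higher in every class, by 16.4 points in the strongest class at D2.

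Missing regions were mostly seen in no pre-iPSC library at all. Of the 6744, 5960 (88.4%) had no peak in any WT D0 or D2 list and 5449 (80.8%) none in any of the 12 pre-iPSC lists besides WT D10, KO included. Early peaks were uncommon over the mESC 72 h list as a whole. Whole WT D0 lists held a peak at a mean of 7.18% of all mESC 72 h peaks and WT D2 lists at 19.1%. The same means for missing regions were 3.59% and 5.47%. Few had been present and were absent at day 10: 157 (2.33%) had a peak in all 3 WT D2 lists. Most lay outside the other stem cell lists too, with a peak at 12 hours in 10.6% and at 0 hours in 3.78%, and 5887 (87.3%) were in neither. Shared regions had an mESC 12 h peak in 42.3% and an mESC 0 h peak in 11.7%, and 3500 of 6363 were in neither list. Specific regions were not all foreign to stem cells: 24.2% had a peak at 12 hours and 14.0% at 0 hours. The latter share was above that of shared regions. This leaves 13829 of 20021 specific regions (69.1%) with no peak in any of the 3 mESC lists. Outside chromosome 8, most regions of every class, shared ones included, were thus in neither the 0 nor the 12 hour list. Such an absence alone does not set a class apart. On chromosome 8, 37.5% of shared, 49.95% of specific and 79.9% of missing regions were in neither list. At day 10, KO1 and KO2 had a peak at 28.2% and 45.2% of shared, 41.1% and 56.8% of specific and 5.07% and 8.51% of missing regions in whole lists.

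**Figure D4:**
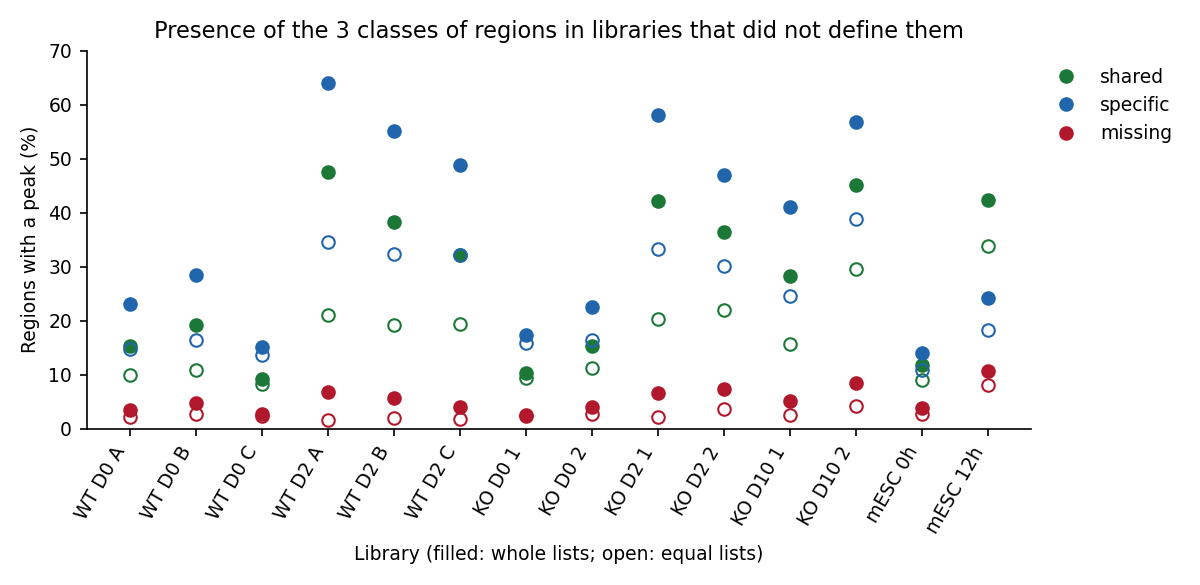
Share of shared, specific and missing regions (%) with a peak in each of the 14 libraries that did not define them; filled points are whole lists and open points equal lists. Specific regions are above shared ones in all WT D0, WT D2 and KO libraries and below them in mESC 12 h, and missing regions stay at or under 10.6%.

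Missing and specific regions occupied different neighbourhoods. Of the missing regions, 16.7% lay within 1 kb of a peak of some WT D10 list and 41.8% within 5 kb, with a median distance of 7.12 kb; the nearest region present in all 3 lists was a median of 42.4 kb away. The nearest of the other classified regions was itself missing for 40.6% of missing regions, where missing regions made up 20.4% of all classified regions. For specific regions the nearest was specific in 70.3% (60.4% of all) and missing in 11.3%. For shared regions the nearest was shared in 22.5% (19.2% of all). In the mESC 72 h list itself, missing peaks were weaker by p than those found in all 3 WT D10 lists, with a median -log10 p of 8.26 against 9.05. They were also narrower, with a median of 242 against 289 bp. The median fold was 4.34 in both, which was also that of the whole list.

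Several 1 Mb windows concentrated these classes, where the median window with any classified region held 2 shared, 5 specific and 2 missing regions. Missing regions were densest at chromosome 9, 3000001 to 4000000, with 30. There mESC 72 h held 36 peaks and every other library at most 17, mESC 0 h and 12 h included with 1 and 2, so the missing regions of this window rest on the 72 hour library. Adjacent windows on chromosome 4, 145000001 to 146000000 and 146000001 to 147000000, held 19 and 23 missing and 10 and 15 shared regions. In the latter window peaks numbered 3, 6 and 5 at WT D0, 6, 9 and 4 at WT D2 and 41, 42 and 30 at WT D10 (A, B and C), against 18, 27 and 45 in mESC at 0, 12 and 72 hours and 12 and 1 in KO1 and KO2 at D10. The chromosome 4 stretch thus had its peaks in all 3 WT libraries at day 10 and few before it, and at 19 and 23 of its stem cell sites there was still none. Specific regions were densest at the end of chromosome 11, 120000001 to 121000000, with 92 specific, 10 shared and no missing regions, and on chromosome 17, 6000001 to 7000000, with 90 specific, 30 shared and 2 missing. The chromosome 17 window was also the densest in shared regions. On chromosome 4, 137000001 to 138000000 held 83 specific and 21 shared regions. Chromosome 15, 96000001 to 97000000, held 29 shared regions beside 40 specific and 16 missing.

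Among single shared regions, the 5 strongest, by their mean rank in the 4 lists, fell into 2 kinds. Chromosome 2, 146871189 to 146871717, reached a fold of 14.7, 12.4, 11.2 and 11.4 in WT D10 A, B, C and mESC 72 h, with a peak in all 3 WT D2 lists and none at WT D0. Chromosome 2, 18460788 to 18461454, reached 13.1, 10.8, 9.11 and 10.7, and had no peak in the other 2 mESC lists. The remaining 3 lay close together on chromosome 11, between 3049856 and 3093983, and their folds were only 2.09 to 3.81 beside a -log10 p of 30.1 to 94.9, so they were strong by p and below the lists' median fold. The longest shared regions were chromosome 15, 76002531 to 76009312 (6782 bp), chromosome 2, 179923966 to 179929889 (5924 bp), and chromosome 17, 84858427 to 84863582 (5156 bp). The chromosome 17 region was a single unbroken peak in each of the 4 lists, with folds of 6.76, 8.17, 10.3 and 7.41, and had a peak in 2 WT D2 lists and in none at WT D0. The chromosome 2 region held 3, 4 and 9 peaks of WT D10 A, B and C, with highest folds of 6.61 to 7.90, and 1 peak of mESC 72 h with a fold of 3.66. Next in length were the regions at chromosome 10, 121040921 to 121044926, and chromosome 4, 141030201 to 141033939.

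The strongest specific region was chromosome 11, 74827808 to 74828244, with folds of 13.2, 9.34 and 10.2 in WT D10 A, B and C. It had a peak in all 3 WT D2 lists and both KO D10 lists, none at WT D0 and none in any mESC list. Next came chromosome 10, 121022129 to 121022557, with folds of 12.0, 8.93 and 8.43, and chromosome 17, 27534496 to 27535028, with 9.17, 8.63 and 7.67. The distance from the chromosome 10 region to the long shared region at 121040921 was an ordinary one. It was near the median of 17.5 kb from a specific region to the nearest mESC 72 h peak. Chromosome 11, 120274613 to 120275204, had folds of 9.45, 9.57 and 8.01 and was alone among these 5 in having no peak in any KO library on any day. Chromosome 17, 6450063 to 6450832, completed the 5 and already had a peak in all 3 WT D0 lists. The longest specific region, of 4093 bp, was at chromosome 2, 32066852 to 32070944. It was followed by chromosome 9 at 21633546 to 21636604, chromosome 17 at 6439925 to 6442886, chromosome 12 at 112558674 to 112561619 and chromosome 18 at 65782353 to 65785247. Each of these 5 was present in the 0 and 12 hour mESC lists, in both KO D10 lists and throughout WT D2, so among stem cell lists they were absent from that at 72 hours alone.

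The strongest missing regions had folds of 8.03 and 8.64 in mESC 72 h at chromosome 11, 34495170 to 34495837, and chromosome 3, 95848445 to 95848962, both with a peak in the other 2 mESC lists as well. Chromosome 2, 19839752 to 19840075, had a fold of 12.2 and a peak at 0 hours, and chromosome 9, 15483230 to 15483640, a fold of 11.9 and no peak in any other list of the series. Chromosome 5, 15186321 to 15186804, was in all 3 mESC lists, with a fold of 4.14 at a -log10 p of 36.1. None of the 5 had a peak at WT D2 or in any KO list, and 3 had a peak in 1 WT D0 list. The longest was chromosome 4, 118219690 to 118221407 (1718 bp, fold 1.87), and the next, chromosome 4, 146431990 to 146433101 (1112 bp, fold 8.99), lay in the dense stretch described above and was in all 3 mESC lists. Those at chromosome 3, 130334003 to 130334790 and 30817780 to 30818555, and at chromosome 5, 126849006 to 126849775, were 770 to 788 bp long.

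Chromosome 8 stood apart. It held 2866 mESC 72 h peaks, 12.0% of the autosomal list, against 6.20 ± 0.125% of the WT D10 lists (SD, n = 3), a ratio of 1.94 where the 18 other autosomes ran from 0.68 (chromosome 11) to 1.19 (chromosome 5). The 12 hour mESC list had 13.2% of its autosomal peaks there and the 0 hour list 6.99%. On chromosome 8, 25.5%, 27.4% and 29.2% of the peaks of WT D10 A, B and C overlapped an mESC 72 h peak, which was 12.2 ± 0.902 points above the other autosomes (SD, n = 3) and above each single one of them, since these ran from 12.0 to 17.6%. The converse share was lower, with 47.9%, 45.5% and 35.4% of the mESC 72 h peaks recovered, a mean of 42.9%. Of the regions with an mESC 72 h peak, 40.3% were missing. On these measures chromosome 5 was close, with a mean of 44.5% recovered and 39.7% missing. The medians of the other autosomes were 49.0% and 32.1%. By region, chromosome 8 had 752 shared (8.69% of 8652), 1029 specific (11.9%) and 1137 missing regions (13.1%). An alternative added after seeing the data cut the mESC 72 h list there to its 1388 strongest peaks, the density of the other autosomes. Then 15.2 ± 1.20% of WT D10 peaks were shared, against 15.1% elsewhere. Of the regions in all 3 WT D10 lists, 25.0% had an mESC 72 h peak, against 24.1% elsewhere. The peaks kept had a -log10 p of at least 8.98, whereas the mESC 72 h list elsewhere was whole. Density and peak strength thus changed together, and the part of each was not tested. The strongest shared region of the chromosome was at 19883990 to 19884395, the strongest specific one at 109191901 to 109192658 and the strongest missing one at 123567198 to 123567674. The specific one had folds of 8.84, 7.06 and 7.97 in WT D10, no peak in any other pre-iPSC library and a peak in the mESC 0 h and 12 h lists. The missing one had a fold of 7.81 at 72 hours and also a peak at 12 hours. Among the other autosomes, chromosome 11 had the lowest share of regions present in all 3 WT D10 lists that were in mESC 72 h (19.4%) and chromosome 1 the highest (28.7%).

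**Figure D5:**
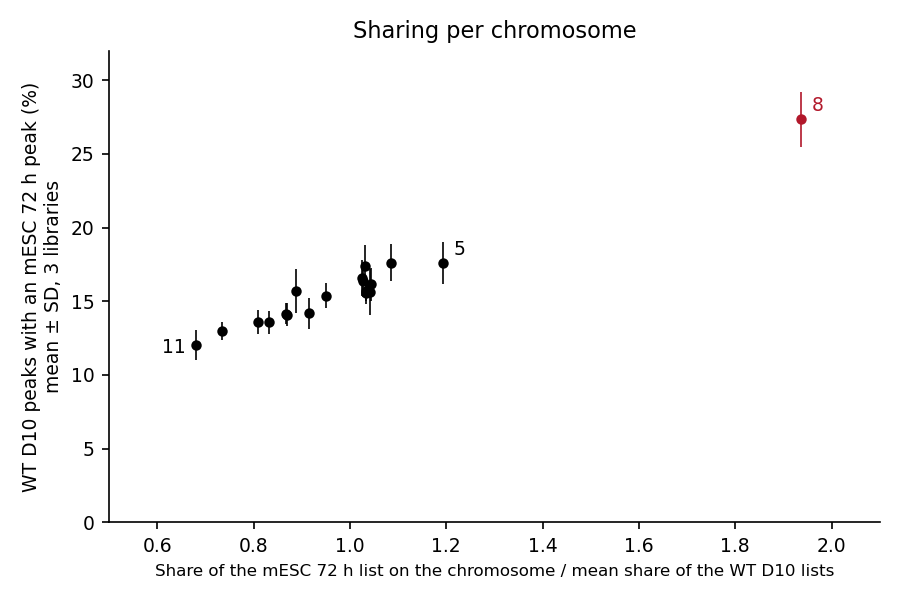
WT D10 peaks with an mESC 72 h peak (%, mean ± SD of 3 libraries) for each autosome, against the share of the mESC 72 h list on that chromosome divided by the mean share of the WT D10 lists. Chromosome 8 lies at 1.94 and 27.4%, beyond the other autosomes, which reach 1.19 and 17.6%.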

How the data were processed

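5hmC-enriched DNA of 3 WT D10 libraries and 1 mESC 72 h library was compared, and 14 further lists were used for presence only. Bowtie, SAMtools, MACS2 and mm9 are named in the submitters' processing notes; their versions are not given here. Each deposited list was called per library, with a p threshold of 0.0001 in its run names. Per the MACS2 layout of the deposited files, columns hold a score, a linear fold ratio over control, and -log10 p and q. A label says that peaks were not called for mESC samples, yet lists are deposited and were used. Absolute depth is unknown.

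Peaks were called overlapping at 1 bp. Lists of unequal length were also cut to their strongest peaks by -log10 p, 21010 for the 4 libraries and 51512 for pre-iPSC libraries. Merged peaks formed regions. Regions named are the 5 strongest and 5 longest per class, the strongest on chromosome 8, and the 5 densest 1 Mb windows, of which the leading ones are given. Shares of single lists have 95% Wilson intervals. Tests were exact permutations in Python 3.11.15; overlaps were checked against bedtools 2.31.1 and on simulated data. Alternatives were a q filter, list length, overlap, chromosomes, 2 of 3 libraries and each replicate left out. Planned gene lists needed an mm9 annotation and were not used here. The comparison and rules were chosen with earlier results of these data known.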

Additional observations from a re-analysis of the deposited data

Results flagged for a closer look

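Chromosome X was outside the comparison and held a smaller share of the peaks than chromosome 19 in every list compared. Its counts were flagged for exceeding the 3 peaks that a count of 0 allows. That bound is not a background level for called peaks, so exceeding it shows only that X was not empty. WT D10 A, B and C held 362, 276 and 133 peaks there and mESC 72 h held 244. These were 0.419%, 0.356% and 0.241% of the WT D10 lists and 1.01% of the mESC 72 h list, where chromosome 19 held 3.28%, 3.26%, 3.35% and 2.91%. Of the 616 merged regions on X, 24 were shared, 33 specific and 109 missing, and 28.2%, 29.7% and 27.8% of the WT D10 peaks of A, B and C overlapped an mESC 72 h peak.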

How the results depend on the processing

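The shares and counts of regions depended on the settings. At a -log10 q of at least 5, 11.2% of WT D10 peaks were shared, with 3059 shared and 13153 specific regions. With equal lists of 21010 peaks, 23.3% of WT D10 and 23.8% of mESC 72 h peaks were shared, with 2172 shared, 3612 specific and 12771 missing regions. With presence in at least 2 of 3 WT D10 libraries, 10345 were shared, 48019 specific and 10372 missing. On chromosome 8 alone 27.4% of WT D10 peaks were shared, with 752, 1029 and 1137 regions. With WT D10 lists of 51512 peaks, an alternative chosen after seeing the data, 16.8% of WT D10 peaks were shared. Leaving out each WT D10 replicate gave shares of 14.6 to 15.6% of WT D10 and 46.0 to 53.7% of mESC 72 h peaks, 7011 to 8899 shared, 25498 to 37294 specific and 7343 to 8679 missing regions. Over the settings tried, the D10 minus D0 recovery of mESC 72 h peaks ran from 30.1 to 41.9 points and kept its exact permutation p at 0.00357 without the block; the KO minus WT difference ran from -33.7 to -24.3 points (exact permutation p 0.1, or 0.333 without a WT D10 library, each the smallest possible).

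Over 2288 windows, same-lettered WT libraries of different days deviated with correlations of -0.07 to 0.06 (9 pairs). Differently lettered ones gave -0.08 to 0.09 (18 pairs). The ranges overlap, so these counts cannot tell whether a letter stands for a shared culture. With the replicate block the recovery difference was 36.9 points (exact permutation p = 0.0278, the smallest possible). The difference in earlier presence between specific and shared regions ran from 9.20 to 16.4 points over 8 alternatives added later. The lowest came from cutting the WT D0 and D2 lists to 51512 peaks, and cutting the 4 lists that define the classes to 21010 peaks gave 12.3 points.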
